A study of Homo sapiens with 6 samples.

Results

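The 40 genes described here are the enzymes of glycolysis, the carriers of glucose and lactate, the kinases that restrain pyruvate dehydrogenase, and the hypoxia-inducible factor (HIF) system with a set of its targets. They were taken by name from a list of symbols, and they make up 40 of the 29476 genes of the deposited count table. All 40 were listed, and all 40 were among the 15615 genes that passed the filter on low counts, with between 50 and 649107 reads per gene and library. RNA-seq of polyadenylated RNA had been performed on A549 cells, an established human lung adenocarcinoma line cultured in MEM with serum at 37 °C and 5% CO2. The siCtrl group was 3 libraries from cells transfected with a nontargeting siRNA, which one field of the sample labels calls a control plasmid. The siDDX17 group was 3 libraries from cells transfected with an siRNA against DDX17, a DEAD-box RNA helicase. Cells for RT-qPCR were harvested 48 h after transfection, and the time of harvest for RNA-seq was not given in the sources used here. A single siRNA duplex was used for the knockdown, so effects of this duplex other than the loss of DDX17 cannot be told apart from that loss, and neither the labels nor the methods describe low oxygen for any culture.

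The total count was between 30658136 and 39182371 reads per library. DDX17 itself stood at 177, 184 and 206 CPM in the control libraries and 32.1, 30.8 and 30.4 in the knockdown libraries, where CPM is the read count relative to library size after scaling with the trimmed mean of M values (TMM), values run from replicate 1 to 3, and means are given ± SD (n = 3). The groups did not overlap, and the change of -2.60 on the log2 scale (SE 0.069, adjusted p = 5.89e-11) was far larger than the spread within each group. Among the 6 libraries, siCtrl 1 stood apart: its chi-square statistic per gene was 20.3 against siCtrl 2 and 25.6 against siCtrl 3, whereas the other pairs within a group gave 3.62 to 5.83. The epithelial keratins KRT8 and KRT18 were abundant, at 2625 to 3416 CPM and 2161 to 2683 CPM, while EPCAM was at 0.738 to 2.28 CPM and the alveolar markers NKX2-1 and NAPSA were at 0.315 to 1.30 CPM. SFTPB and SFTPC stood at 0.156 CPM or less, so the defining markers of alveolar cells were near 0 in these libraries. Markers of fibroblasts, endothelium and leukocytes reached at most 3.55 CPM (COL1A1) and 2.05 CPM (CD68), and the others listed stood at 0.266 CPM or less. Of the 5 epithelial markers KRT8, KRT18 and KRT19 fell (log2 fold changes -0.28, -0.18 and -0.32), EPCAM rose (1.35) and CDH1 did not pass the test. NAPSA rose as well (0.90, adjusted p = 0.00958). Their part in the changes of the 40 genes was not tested.

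Glycolysis converts glucose to pyruvate in the cytosol: a first stage phosphorylates and splits the hexose, and a second stage oxidises the resulting trioses and yields ATP. Lactate dehydrogenase and the monocarboxylate transporters then turn over and export lactate, whereas pyruvate that enters the mitochondrion passes pyruvate dehydrogenase, which the PDK kinases inhibit. HIF is a pair of an oxygen-labile alpha subunit (HIF1A or EPAS1) and the stable ARNT. With oxygen present, the EGLN prolyl hydroxylases mark the alpha subunit for VHL, so its activity is set largely at the level of protein, and HIF bound to DNA raises the transcription of many glycolytic genes.

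Of the 40 genes, most of those that changed were lower after DDX17 knockdown. A gene was called when its adjusted p was under 0.05 in the quasi-likelihood test of edgeR, with Benjamini-Hochberg adjustment over all 15615 tested genes. By that test 22 of the 40 (55%) were downregulated, against a background of 24.3% of all tested genes, and 6 (15%) were upregulated, against 24.5%. Calls in either direction numbered 28, against 48.8% of all tested genes, and the other 12 did not pass. With a fold of at least 1.5 as well, 8 were downregulated (PFKFB4, ALDOC, PGK1, ENO2, PKM, SLC16A3, BNIP3 and ANKRD37), against 8.55% of all tested genes, and PFKL alone was upregulated, against 11.9%, which makes 9 in either direction against 20.4%. In 20 of the 40 genes every siDDX17 library was below every siCtrl library, which held for 27.7% of all tested genes, and in 6 every siDDX17 library was above, against 28.8%. The median log2 fold change of the 40 was -0.22, beside a median of 0.0051 over all tested genes, and 30 of the 40 lay below the latter. A library-wide scaling moved these counts: dividing by the library size alone raised the median of all genes by 0.12 and gave 13 downregulated and 10 upregulated members, while the median of the members stayed 0.23 below that of all genes. Among all called genes, 49.9% were lower with TMM scaling and 32.3% with library size alone. In bulk RNA, fewer cells that express a gene and less RNA per cell cannot be told apart.

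**Figure D1:**
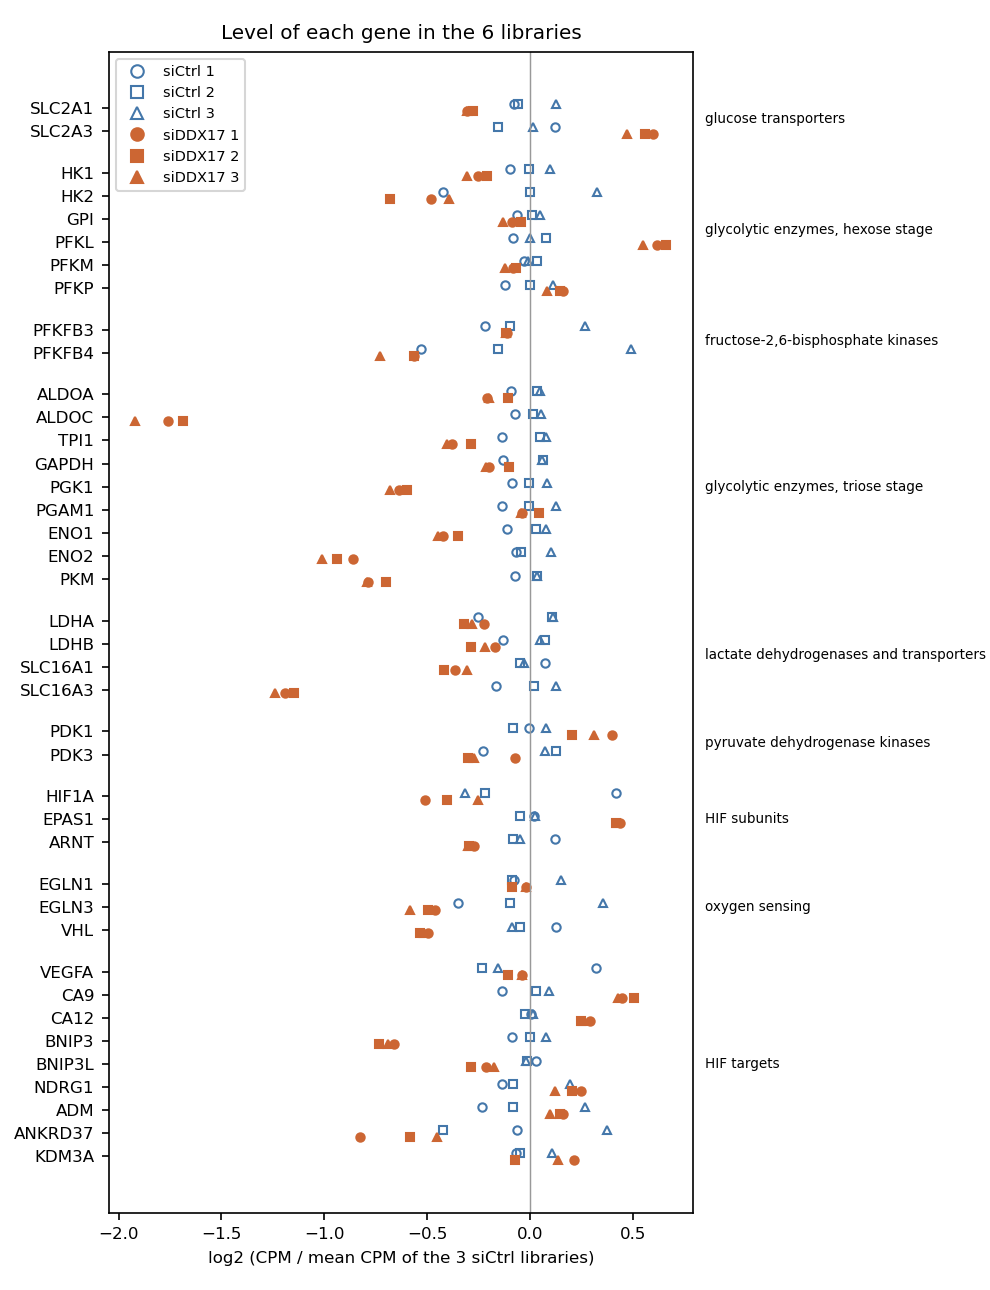
Level of the 40 genes in each library, as the log2 of CPM over the mean of the 3 siCtrl libraries. Open blue symbols are siCtrl and filled orange symbols are siDDX17, with 1 symbol shape per replicate number. The siDDX17 symbols of ALDOC and SLC16A3 lie farthest to the left, and those of PFKL, SLC2A3, CA9 and EPAS1 lie to the right of all siCtrl symbols.

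The bases before the transcription start were read for the genes that changed by at least 1.5-fold, because HIF binds promoters at the core letters ACGTG or GCGTG. Promoters were those of RefSeq on GRCh38.p14, and 34 of the 40 genes had one in the table used. The search covered both strands of the 250 bases upstream of the start, so that ACGTG was also counted where it formed part of CACGTG, the E-box bound by other factors. At least 1 match was found in 22 of the 34 promoters (64.7%), in 57.1% of the 11205 promoters of tested genes, and in 43.1% of all 27305 promoters of this length. Among members the share was 11 of 19 downregulated genes (57.9%), 4 of 5 upregulated genes and 7 of 10 that did not pass. PKM and SLC16A3, which were among the most reduced genes, had no match in this window. Of the genes with one, the match nearest the start is shown within 30 bases, 5′ to 3′ on the strand of the gene, with the matched letters in capitals, and CACGT and CACGC are the same core read on the other strand. CA9 is shown beside them as an upregulated gene with a known hypoxia element.
ALDOC (chr17:28576906-28576935, minus strand): ccccggaggagtCACGTagctctgcgacat
ENO2 (chr12:6914450-6914479, plus strand): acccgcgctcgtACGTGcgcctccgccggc
PGK1 (chrX:78104053-78104082, plus strand): aaacggaagccgCACGTctcactagtaccc
BNIP3 (chr10:131982010-131982039, minus strand): cacgcccctgcgCACGCgcaggccccaagt
PFKFB4 (chr3:48556952-48556981, minus strand): tgagttgggcatGCGTGgtcggaggccggg
ANKRD37 (chr4:185396686-185396715, plus strand): cagtgtttgtgtACGTGcggccgtggcggg
PFKL (chr21:44299877-44299906, plus strand): tgctcagggcccGCGTGacattgcacaggt
CA9 (chr9:35673898-35673927, plus strand): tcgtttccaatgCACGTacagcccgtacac
The promoters held 5 matches for ALDOC, 1 for ENO2, 3 for PGK1, 6 for BNIP3, 1 for PFKFB4, 3 for ANKRD37, 1 for PFKL and 1 for CA9. Overlapping matches were counted separately, so CACGTG counts on both strands and these are not numbers of sites. In the annotation of GENCODE release 44, whose gene models can start further upstream, the windows of PGK1, PFKFB4 and ANKRD37 lie in an intron of the gene, those of ALDOC and ENO2 touch an exon, and those of BNIP3, PFKL and CA9 lie outside the gene. These letters are a description of the promoter and show neither a bound site nor a cause.

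Glucose enters the cell through facilitative transporters, and the 2 measured here moved in opposite directions. SLC2A3, the high-affinity transporter GLUT3, stood at 34.5, 28.5 and 32.1 CPM in the control libraries and 47.97, 46.7 and 44.05 in the knockdown libraries, so all siDDX17 libraries were above all siCtrl libraries. It rose 1.46-fold (log2 fold change 0.54, SE 0.074, adjusted p = 5.1e-05). SLC2A1, the widely expressed GLUT1, fell slightly, from 184 ± 14.9 CPM with siCtrl to 149.8 ± 1.64 with siDDX17, with no overlap (log2 fold change -0.30, SE 0.063, adjusted p = 0.00157). Per length of transcript, in FPKM, SLC2A3 made up 13.9% ± 1.49 in siCtrl and 22.4% ± 0.771 in siDDX17 of the sum of both genes. SLC2A1 lost its call when the FPKM values were tested with limma, whereas SLC2A3 kept it in each of the 16 refits made with other scalings, filters, tools or libraries left out.

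In the hexose stage, counted here up to phosphofructokinase, 1 of 6 enzymes rose (16.7%), 2 fell (33.3%) and 3 did not pass the test. Of all tested genes, 24.5% rose and 24.3% fell. PFKL, the liver-type subunit of phosphofructokinase, the committing step of the pathway, had levels of 35.7, 39.9 and 37.8 CPM in the control libraries and 58.1, 59.9 and 55.4 in the knockdown libraries. Every siDDX17 library exceeded every siCtrl library, and the rise was 1.53-fold (log2 fold change 0.61, SE 0.062, adjusted p = 3.56e-06). The other phosphofructokinase subunits did not pass: platelet-type PFKP was at 566 ± 45.9 CPM with siCtrl against 619.7 ± 16.9 with siDDX17, and muscle-type PFKM was at 68.98 ± 1.44 CPM with siCtrl against 64.9 ± 1.21 with siDDX17. PFKP was nevertheless called as higher under scaling by library size alone (log2 fold change 0.25, adjusted p = 0.00262) and without siCtrl 3 (0.19, adjusted p = 0.0361). Both limma fits of FPKM also called it as higher (0.26 in each, adjusted p = 0.00549 and 0.00582). By FPKM, PFKP was the main subunit in both groups, and the PFKL share went from 7.12% ± 0.401 to 9.78% ± 0.192.

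The hexokinases, which trap glucose by phosphorylation, were both called as lower, but neither call held in every refit. HK1 supplied 98.6% of hexokinase FPKM in siCtrl and went from 199 ± 13.4 CPM with siCtrl to 167 ± 5.57 with siDDX17 (log2 fold change -0.26, SE 0.061, adjusted p = 0.00374). HK2, an inducible isozyme linked to tumour glycolysis, was scarce, at 2.92, 3.92 and 4.91 CPM in the control libraries and 2.80, 2.44 and 2.99 in the knockdown libraries, and the groups overlapped. Its fold change was -0.52 on the log2 scale (SE 0.18, adjusted p = 0.0305), but -0.31 without siCtrl 3 (adjusted p = 0.17), and its call was lost in 8 of 16 refits. HK1 lost its call in the 3 that used library size or FPKM. GPI, which isomerises glucose phosphate to fructose phosphate, had 1197 ± 47.4 CPM with siCtrl against 1128 ± 33.6 with siDDX17 and did not pass, although it did as lower without siCtrl 1 (log2 fold change -0.13, adjusted p = 0.0156).

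The PFKFB enzymes make and break the activator of phosphofructokinase. PFKFB4 stood at 26.4, 34.3 and 53.7 CPM in the control libraries and 25.8, 25.8 and 23.00 in the knockdown libraries, where siCtrl 3 was far above the rest and siCtrl 1 lay just above the siDDX17 libraries. Its change of -0.62 on the log2 scale (SE 0.18, adjusted p = 0.0125) shrank to -0.28 without siCtrl 3 and was -0.85 without siCtrl 1. The call was lost in 4 of 16 refits, DESeq2 among them. PFKFB3, at 209 ± 37.6 CPM with siCtrl against 193 ± 0.343 with siDDX17, did not pass, but did so as lower without siCtrl 1 (log2 fold change -0.23, adjusted p = 0.00205).

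In the triose stage, counted here from the aldolases onward, 7 of 9 genes fell (77.8%, against 24.3% of all tested genes). The aldolases split the hexose, so the counts of both stages depend on this division. All 9 log2 fold changes lay below 0, from -1.79 to -0.01, with a median of -0.41. Scaling by library size alone left 6 of the 9 downregulated and put PGAM1, which did not pass, at 0.11. ALDOC, the aldolase best known from brain, which splits fructose bisphosphate, showed the largest change of all 40 genes, with 102, 108 and 111 CPM in the control libraries and 31.6, 33.2 and 28.3 in the knockdown libraries. All siDDX17 libraries were far below all siCtrl libraries. ALDOC was 3.45-fold lower (log2 fold change -1.79, SE 0.069, adjusted p = 7.86e-10). ALDOA, the major aldolase, had 3821 ± 202 CPM with siCtrl against 3396 ± 134 with siDDX17 and a far smaller difference (log2 fold change -0.17, SE 0.063, adjusted p = 0.0386), and it lost its call in 9 of 16 refits. TPI1, which interconverts the trioses, stood at 2199.9, 2496 and 2552 CPM in the control libraries and 1858, 1984 and 1828 in the knockdown libraries, without overlap between the groups. It fell 1.28-fold (log2 fold change -0.35, SE 0.068, adjusted p = 0.000778).

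GAPDH, the triose dehydrogenase that also serves as the reference gene of the RT-qPCR assays of the study, did not pass the test. It stood at 15158, 17353 and 17323 CPM in the control libraries and 14482, 15475 and 14336 in the knockdown libraries, so siDDX17 2 lay between the siCtrl libraries (log2 fold change -0.17, SE 0.072, adjusted p = 0.067). Without siCtrl 1 the log2 fold change was -0.24 and passed (adjusted p = 9.53e-06), and with scaling by library size alone it was -0.05 (adjusted p = 0.474). GAPDH was also called as lower by DESeq2 (adjusted p = 0.0264) and without the low-count filter (adjusted p = 0.00161). As a share of all reads of the library, GAPDH took 1.49 to 1.66% in siCtrl and 1.51 to 1.59% in siDDX17. PGAM1, a phosphoglycerate mutase, was at 1105 ± 100.0 CPM with siCtrl against 1095 ± 36.6 with siDDX17 and did not pass either.

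PGK1, the phosphoglycerate kinase that yields the first ATP of the pathway, stood at 2269, 2402 and 2553 CPM in the control libraries and 1551, 1590.4 and 1506 in the knockdown libraries. The groups were well separated, and PGK1 was 1.55-fold lower (log2 fold change -0.64, SE 0.062, adjusted p = 2.28e-06). ENO1, the ubiquitous enolase, had 5816, 6416 and 6632 CPM in the control libraries and 4690.0, 4941 and 4609 in the knockdown libraries, again without overlap. Its decrease was 1.32-fold (log2 fold change -0.41, SE 0.067, adjusted p = 0.000229). ENO2, the neuronal enolase, had a larger change, with 104, 106 and 117 CPM in the control libraries and 59.8, 56.7 and 53.8 in the knockdown libraries. It fell 1.91-fold (log2 fold change -0.94, SE 0.064, adjusted p = 1.05e-07), the second largest change of the pathway enzymes. PKM, pyruvate kinase, which makes pyruvate and ATP in the last step, stood at 6019.9, 6480.0 and 6472 CPM in the control libraries and 3667, 3892 and 3649 in the knockdown libraries. Each siDDX17 library was below each siCtrl library, with a 1.69-fold decrease (log2 fold change -0.76, SE 0.062, adjusted p = 4.74e-07). TPI1, PGK1, ENO1, ENO2, PKM and ALDOC kept their calls in each of the 16 refits.

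**Figure D2:**
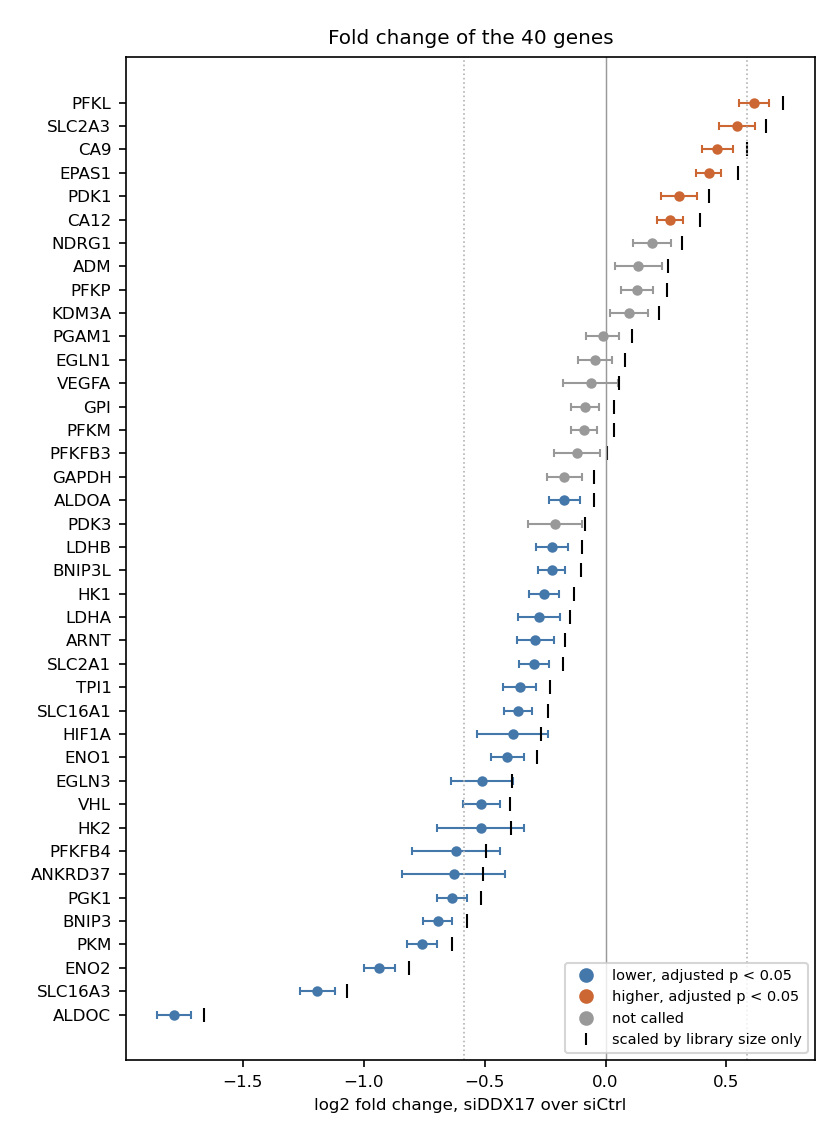
Log2 fold change of siDDX17 over siCtrl for the 40 genes, ordered by size, with bars of 1 standard error and 3 libraries per group. Dotted lines mark a fold of 1.5, and black ticks give the value with scaling by library size alone, which lies to the right of each point. ALDOC at -1.79 and SLC16A3 at -1.19 are the lowest and PFKL at 0.61 is the highest.

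The 17 glycolytic and lactate dehydrogenase genes together took 4.32, 4.62 and 4.80% of the reads in siCtrl 1 to 3 and 4.02, 4.13 and 4.001% in siDDX17 1 to 3. All siDDX17 libraries were below all siCtrl libraries, and GAPDH was the largest contributor. These shares are relative to all reads of a library and carry no further scaling.

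All 4 genes of lactate production and export were lower, against 24.3% of all tested genes, although both dehydrogenase calls were weak. SLC16A3, the monocarboxylate transporter MCT4 that exports lactate from glycolytic cells, stood at 358, 407 and 439 CPM in the control libraries and 176, 181 and 169.7 in the knockdown libraries. The groups lay far apart, and SLC16A3 was 2.28-fold lower (log2 fold change -1.19, SE 0.072, adjusted p = 3.53e-08), the second largest change of the 40. CSNK1D overlaps SLC16A3 on the opposite strand, at a mean of 213 CPM, and whether the counting used the strand was not given in the sources used here. SLC16A1, the bidirectional transporter MCT1, stood at 66.4, 60.9 and 61.8 CPM in the control libraries and 48.9, 47.2 and 50.9 in the knockdown libraries, without overlap. It fell 1.29-fold (log2 fold change -0.36, SE 0.06, adjusted p = 0.000232), so that SLC16A3 made up 85.1% ± 1.88 in siCtrl and 76.4% ± 1.27 in siDDX17 of the FPKM of both transporters. LDHA, the dehydrogenase subunit that favours lactate formation, went from 4638 ± 644 CPM with siCtrl to 3834 ± 133 with siDDX17, and the groups overlapped at siCtrl 1 (log2 fold change -0.27, SE 0.088, adjusted p = 0.0191). LDHB, the subunit of oxidative tissues, went from 1988 ± 149 CPM with siCtrl to 1705 ± 70.2 with siDDX17 (log2 fold change -0.22, SE 0.067, adjusted p = 0.0138). LDHA lost its call in 7 of 16 refits and LDHB in 6, and scaling by library size alone left the 2 transporters as the lower genes of this group.

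The 2 pyruvate dehydrogenase kinases did not share a direction. PDK1, a HIF target that limits the entry of pyruvate into the citric acid cycle, rose from 24.03 ± 1.33 CPM with siCtrl to 29.7 ± 2.003 with siDDX17, with no overlap (log2 fold change 0.31, SE 0.074, adjusted p = 0.00403). PDK3, at 9.95 ± 1.26 CPM with siCtrl against 8.59 ± 0.769 with siDDX17, did not pass, although it was called as lower without siCtrl 1 (log2 fold change -0.32, adjusted p = 0.00728).

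The comparison of paralogs within a library does not depend on scaling. The log2 ratio of counts was taken for 13 pairs, and in 11 of them the 3 siDDX17 ratios did not overlap the 3 siCtrl ratios. Groups of single genes did not overlap in 56.5% of all tested genes, and no share was computed for ratios of other gene pairs, so nothing is read from this count. Each of these 11 had p = 0.1 in an exact two-sided permutation test, the smallest value that 3 libraries against 3 allow, and 0.118 after Benjamini-Hochberg adjustment over the 13. The largest difference was that of ALDOC to ALDOA, whose ratio fell by 1.62 on the log2 scale. ALDOC supplied 5.47% ± 0.0667 in siCtrl and 1.85% ± 0.113 in siDDX17 of aldolase FPKM. ENO2 to ENO1 fell by 0.53, SLC16A3 to SLC16A1 fell by 0.83, and PFKM to PFKL fell by 0.70. SLC2A3 to SLC2A1 increased by 0.84, EPAS1 to HIF1A by 0.78 and BNIP3L to BNIP3 by 0.47. The difference of EPAS1 to HIF1A was 0.56 without siCtrl 1 and 0.93 without siCtrl 3. The ratios of HK2 to HK1 (-0.23, exact permutation p = 0.4) and of LDHB to LDHA (0.05, exact permutation p = 0.4) overlapped between the groups. In siDDX17 the minor isozymes ALDOC and ENO2 held a smaller share of aldolase and enolase, SLC2A3 and PFKL held a larger share of their families, and PFKM went from 9.63% ± 0.618 to 8.13% ± 0.0949 of phosphofructokinase FPKM.

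**Figure D3:**
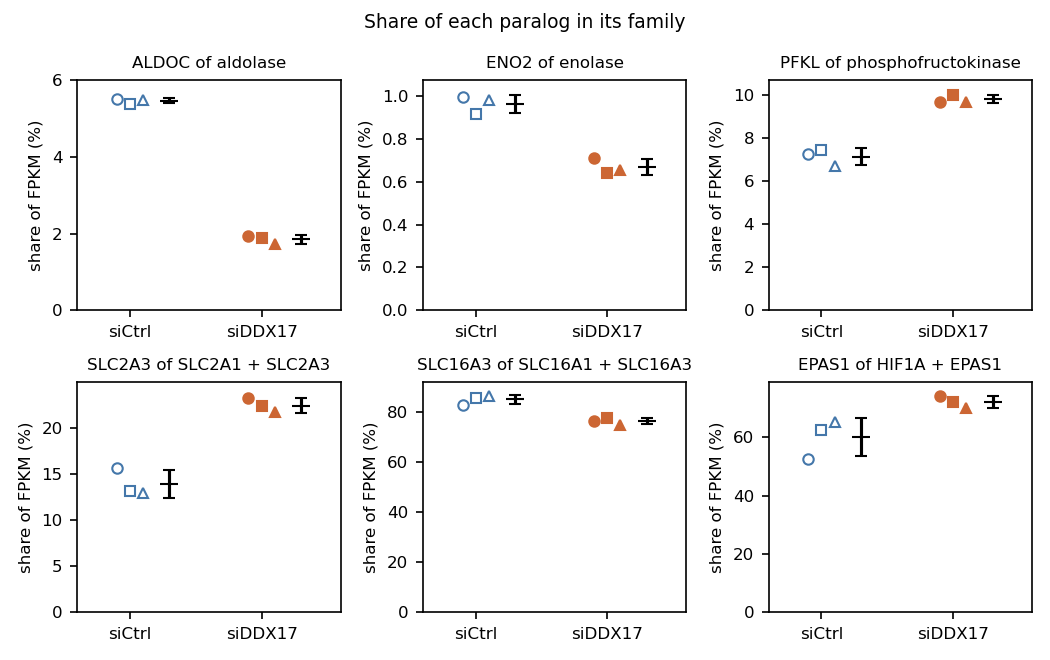
Share of 1 gene in the summed FPKM of its family, in percent, for 6 families. Open symbols are the siCtrl libraries and filled symbols the siDDX17 libraries, with black marks for the mean and 1 SD (n = 3). The groups do not overlap in any of the 6, and ALDOC shows the widest gap for its size, from 5.47% to 1.85% of aldolase. The shares within hexokinase and within lactate dehydrogenase, which are not drawn, overlapped between the groups.

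Of the HIF subunits, EPAS1 rose, ARNT fell, and HIF1A was called as lower in a result that most refits did not keep. EPAS1, the alpha subunit first known from endothelium, stood at 402, 384 and 404 CPM in the control libraries and 538, 530.3 and 532 in the knockdown libraries. The groups were separate, with a 1.34-fold rise (log2 fold change 0.43, SE 0.053, adjusted p = 2.11e-05). HIF1A, the other alpha subunit, had 298, 192 and 179 CPM in the control libraries and 156, 169 and 187 in the knockdown libraries, so siCtrl 1 was far above all other libraries and siDDX17 3 lay among the remaining siCtrl values. Its log2 fold change was -0.38 (SE 0.15, adjusted p = 0.0435), but -0.13 without siCtrl 1 (adjusted p = 0.0546), and the call was lost in 11 of 16 refits. ARNT, the common partner, stood at 25.1, 21.8 and 22.3 CPM in the control libraries and 19.1, 18.8 and 18.7 in the knockdown libraries, and its groups did not overlap. It fell 1.22-fold (log2 fold change -0.29, SE 0.075, adjusted p = 0.00599), a call that scaling by library size alone removed. EPAS1 accounted for 60.02% ± 6.53 in siCtrl and 72.1% ± 1.92 in siDDX17 of the FPKM of the alpha subunits. Its share was 52.7, 62.3 and 65.1% in siCtrl 1 to 3.

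Of the oxygen sensing genes, VHL and EGLN3 fell and EGLN1 did not pass. VHL, the substrate receptor that directs hydroxylated HIF alpha to the proteasome, stood at 28.9, 25.5 and 24.8 CPM in the control libraries and 18.8, 18.2 and 18.5 in the knockdown libraries. All siDDX17 libraries were lower, by 1.43-fold (log2 fold change -0.51, SE 0.076, adjusted p = 9.57e-05), and the call held in each of the 16 refits. EGLN3, a prolyl hydroxylase that is itself induced by HIF, stood at 81.4, 96.9 and 132 CPM in the control libraries and 75.3, 73.5 and 69.2 in the knockdown libraries, where siCtrl 3 was the highest and siCtrl 1 was near the siDDX17 values. Its log2 fold change of -0.51 (SE 0.13, adjusted p = 0.00469) was -0.30 without siCtrl 3 (adjusted p = 0.00636). SPTSSA, at a mean of 64.6 CPM, overlaps EGLN3 on the same strand, so the division of reads between them is uncertain. EGLN1, the main oxygen sensor, had 58.2, 57.6 and 68.1 CPM in the control libraries and 60.5, 57.7 and 60.5 in the knockdown libraries, and the groups overlapped (log2 fold change -0.04, SE 0.069, adjusted p = 0.632).

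Of the 9 HIF targets of the list outside glycolysis, 2 rose (22.2%), 3 fell (33.3%) and 4 did not pass, with a median log2 fold change of 0.10. Of all tested genes, 24.5% rose and 24.3% fell. Scaling by library size alone gave 5 upregulated and 1 downregulated of the 9, and 5230 and 2494 of all 15615 tested genes. CA9, a cell-surface carbonic anhydrase and a common marker of hypoxia, stood at 112, 125 and 131 CPM in the control libraries and 167, 174 and 165 in the knockdown libraries. It rose 1.38-fold without overlap (log2 fold change 0.46, SE 0.064, adjusted p = 5.83e-05). CA12, a related carbonic anhydrase, increased from 473 ± 6.25 CPM with siCtrl to 569 ± 9.25 with siDDX17 (log2 fold change 0.27, SE 0.052, adjusted p = 0.000876). BNIP3, a mitochondrial outer membrane protein that promotes mitophagy, moved the other way, with 233, 248 and 261 CPM in the control libraries and 156, 149 and 153 in the knockdown libraries. All siDDX17 libraries were below all siCtrl libraries, and the decrease was 1.62-fold (log2 fold change -0.69, SE 0.059, adjusted p = 6.3e-07). Its homolog BNIP3L changed less, from 129.6 ± 2.53 CPM with siCtrl to 111 ± 4.29 with siDDX17 (log2 fold change -0.22, SE 0.055, adjusted p = 0.00428). ANKRD37, an ankyrin repeat protein and one of the most inducible HIF targets, was scarce, at 2.24, 1.75 and 3.04 CPM in the control libraries and 1.32, 1.56 and 1.71 in the knockdown libraries. UFSP2 overlaps ANKRD37 on the opposite strand at a mean of 15.5 CPM, above that of ANKRD37 itself (1.94 CPM), and PNMA2 overlaps BNIP3L in the same way at 48.5 CPM, so without a known use of strand in the counting these reads cannot be told apart. The log2 fold change of ANKRD37 was -0.63 (SE 0.21, adjusted p = 0.0254), but -0.39 without siCtrl 3 (adjusted p = 0.151), and it lost its call in 6 of 16 refits. BNIP3, CA9 and CA12 kept theirs in all 16.

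The 4 other targets showed no call. VEGFA, the angiogenic growth factor, stood at 53.5, 36.4 and 38.5 CPM in the control libraries and 41.6, 39.8 and 41.6 in the knockdown libraries, with siCtrl 1 above the rest and the other libraries close together (log2 fold change -0.06, SE 0.11, adjusted p = 0.677). NDRG1, a stress response protein, was at 248 ± 31.1 CPM with siCtrl against 283 ± 12.6 with siDDX17, with an adjusted p of 0.0592. ADM, the vasodilator adrenomedullin, was at 84.6 ± 15.4 CPM with siCtrl against 92.95 ± 2.02 with siDDX17. KDM3A, a histone demethylase, was at 37.1 ± 2.48 CPM with siCtrl against 39.8 ± 3.98 with siDDX17. Without siCtrl 3, NDRG1 (log2 fold change 0.30, adjusted p = 0.00214) and ADM (0.29, adjusted p = 0.00325) passed as higher, and NDRG1, ADM and KDM3A passed as higher under scaling by library size alone. NDRG1 also passed with upper quartile scaling, with at least 10 counts in every library, without the low-count filter and in both limma fits of FPKM (adjusted p from 0.0095 to 0.0462).

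A wide spread among the control libraries touched several of these results. In 5 of the 40 (HK2, PFKFB4, HIF1A, EGLN3 and ANKRD37) the highest siCtrl library was at least 1.5 times the lowest, against 17.5% of all tested genes, and the median of that ratio was 1.15 in the list and 1.19 over all tested genes. Among the siDDX17 libraries this spread was reached by 0 of the 40 and by 11.5% of all tested genes. siCtrl 3 was the highest control in 27 of the 40 members, whereas it was the highest in 30.3% of all tested genes, and siCtrl 1 was the highest in 7 members and in 39.8% of all tested genes. Among the 12 oxygen sensing genes and HIF targets, siCtrl 3 was the highest control in 9. Of 43 tested HIF targets outside the list, siCtrl 3 was the highest control in 17, siCtrl 2 in 6 and siCtrl 1 in 20. HIF1A and VEGFA had siCtrl 1 as the highest. The whole list was therefore counted again without each of these libraries: 25 members fell and 6 rose without siCtrl 1, and 18 fell and 9 rose without siCtrl 3. What set the control libraries apart was not tested.

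For 7 members the call was lost when a single library was left out, and for 7 others (GPI, PFKP, PFKFB3, GAPDH, PDK3, NDRG1 and ADM) one was gained without siCtrl 1 or siCtrl 3. With adjusted p-values of the refit in brackets, HK2 was not called without siCtrl 2 (0.0592), siCtrl 3 (0.17), siDDX17 1 (0.0682), siDDX17 2 (0.123) or siDDX17 3 (0.0509). PFKFB4 was not called without siDDX17 3 (0.0578). ALDOA was not called without siCtrl 2 (0.0958), siCtrl 3 (0.122), siDDX17 1 (0.165) or siDDX17 3 (0.147). Of the lactate dehydrogenases, LDHA was not called without siCtrl 2 (0.0777), siCtrl 3 (0.0713), siDDX17 2 (0.0869) or siDDX17 3 (0.0698), and LDHB was not called without siCtrl 2 (0.0562), siDDX17 2 (0.0707) or siDDX17 3 (0.0537). HIF1A was not called without siCtrl 1 (0.0546), siDDX17 1 (0.15), siDDX17 2 (0.136) or siDDX17 3 (0.0537). ANKRD37 was not called without siCtrl 3 (0.151), siDDX17 1 (0.098) or siDDX17 2 (0.0692). The log2 fold changes of the 7 that lost it stayed below 0 in each of these refits.

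**Figure D4:**
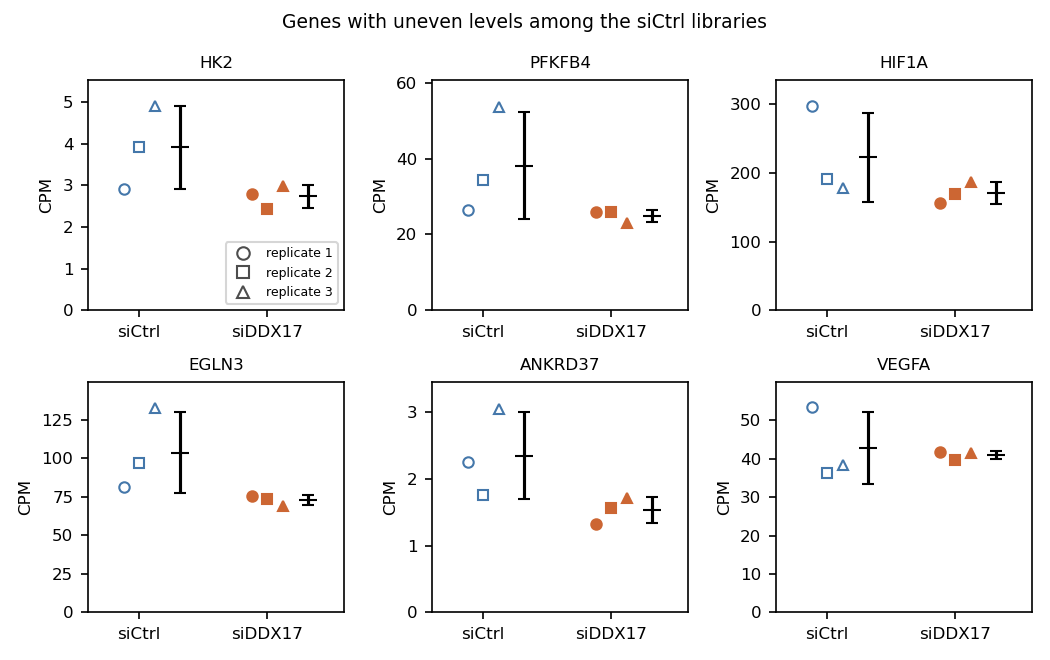
CPM of the 5 genes whose siCtrl libraries spread at least 1.5-fold, and of VEGFA, in each library. Symbol shapes give the replicate number, and black marks give the mean and 1 SD (n = 3). siCtrl 3 is the highest for HK2, PFKFB4, EGLN3 and ANKRD37, siCtrl 1 is the highest for HIF1A and VEGFA, and the siDDX17 libraries lie close together in each gene.

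The mRNAs encoded by mitochondrial DNA, subunits of the respiratory chain and ATP synthase, were lower together with the glycolytic genes. All 13 fell, and 6 of them by at least 1.5-fold, against 24.3% and 8.55% of all tested genes, with a median log2 fold change of -0.57. These mRNAs were taken up because they were already known to be lower in these data. The shares therefore describe the list and test nothing. Over the 16 refits 11 to 13 were called, with 11 in both limma fits of FPKM and 12 with DESeq2 and with library size alone. They took 11.9, 11.1 and 10.4% of the reads in siCtrl 1 to 3 and 8.36, 8.25 and 8.06% in siDDX17 1 to 3. Within the controls, the library with the highest mitochondrial share (siCtrl 1) had the lowest share of glycolytic reads, while in siDDX17 both shares were below all controls. MT-ND4, a subunit of complex I, stood at 17074, 15549 and 14843 CPM in the control libraries and 10069, 9993 and 9719.9 in the knockdown libraries (log2 fold change -0.67, SE 0.069, adjusted p = 3.61e-06). MT-ND6, the one mRNA of the light strand, was set by siCtrl 1, at 450.1, 106 and 121 CPM in the control libraries and 70.96, 87.9 and 72.3 in the knockdown libraries. Its log2 fold change of -1.55 (SE 0.40, adjusted p = 0.00581) was -0.57 without that library. The use of strand in the counting was not given, so reads from the opposite strand cannot be told apart for MT-ND6. Leaving the mitochondrial genes out of the scaling gave 22 downregulated and 6 upregulated members, the counts found with them. Whether the lower mitochondrial mRNAs have a part in the changes of the 40 genes was not tested.

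Of 29 nuclear genes of pyruvate entry and the citric acid cycle, 8 rose (27.6%) and 7 fell (24.1%), shares near the 24.5% and 24.3% of all tested genes, with a median log2 fold change of -0.071. Among those that rose were CS, citrate synthase (log2 fold change 0.57, SE 0.054, adjusted p = 2.07e-06), and SUCLG2, a succinyl-CoA ligase subunit (0.50). The largest decreases were those of the pyruvate dehydrogenase phosphatase genes PDPR (-0.44) and PDP2 (-0.36), and of IDH3B, a subunit of isocitrate dehydrogenase (-0.35). Of 7 enzymes of the pentose phosphate pathway, which branches from the hexose stage, 3 fell (42.9%) and 1 rose (14.3%), against the same 24.3% and 24.5%. PGD, phosphogluconate dehydrogenase, stood at 2027, 2175 and 2187 CPM in the control libraries and 1332, 1369 and 1303 in the knockdown libraries and was the most reduced (log2 fold change -0.67, SE 0.058, adjusted p = 7.72e-07), followed by TALDO1, transaldolase (-0.43), and PGLS (-0.20), while RPE rose (0.22). Among 18 tested genes of other glycolytic isozymes, sugar handling and transport, 5 fell (27.8%) and 3 rose (16.7%). The share that fell was near the 24.3% of all tested genes, and that which rose was below 24.5%. PFKFB2, a further PFKFB enzyme, stood at 11.1, 8.57 and 9.02 CPM in the control libraries and 4.93, 4.80 and 5.11 in the knockdown libraries (log2 fold change -0.95, SE 0.12, adjusted p = 1.88e-05). BPGM, which diverts a triose intermediate of the pathway, stood at 19.9, 20.5 and 19.1 CPM in the control libraries and 11.99, 9.19 and 10.8 in the knockdown libraries (log2 fold change -0.89, SE 0.096, adjusted p = 5.54e-06). PGM2 was also lower (-0.30), and SLC16A7, a further monocarboxylate transporter (0.64), G6PC3 (0.24) and BSG, the chaperone of the lactate transporters (0.17), rose.

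Beyond the listed members, 43 further HIF targets were tested, with 11 upregulated and 11 downregulated (25.6% each, near the 24.5% and 24.3% of all tested genes) and a median log2 fold change of 0.076. Scaling by library size alone turned this into 21 and 5, and the 3819 and 3798 of all tested genes into 5230 and 2494. The largest rises among those whose mean log2 CPM was 1 or more were PPP1R3C (log2 fold change 1.27, SE 0.085, adjusted p = 8.51e-08) and PPP1R3B (0.99), which target a phosphatase to glycogen, and TGFA, a growth factor (0.84). PPP1R3C stood at 20.2, 18.4 and 23.2 CPM in the control libraries and 52.5, 46.5 and 49.9 in the knockdown libraries, without overlap. The largest decreases were STC2, a secreted glycoprotein (log2 fold change -1.21, SE 0.20, adjusted p = 0.000236), RIMKLA (-0.95) and LOX, lysyl oxidase (-0.83). STC2 had 356, 189.9 and 172 CPM in the control libraries and 111, 102 and 97.3 in the knockdown libraries, and its log2 fold change was -0.81 without siCtrl 1. Of 11 tested components and regulators of the HIF pathway, 5 fell (45.5%) and 2 rose (18.2%), against 24.3% and 24.5% of all tested genes. ELOC, the elongin that partners VHL (log2 fold change -0.69, SE 0.056, adjusted p = 4.5e-07), EP300, a coactivator (-0.36), and HIF1AN, the asparaginyl hydroxylase of HIF alpha (-0.34), were the most reduced, and ARNT2 (0.40) and CITED2 (0.28) rose. In the promoters, the core letters occurred in 27 of the 33 further HIF targets whose promoter was read (81.8%). The share was 57.1% of promoters of tested genes and 64.7% of members, and no cause was tested with it.

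**Figure D5:**
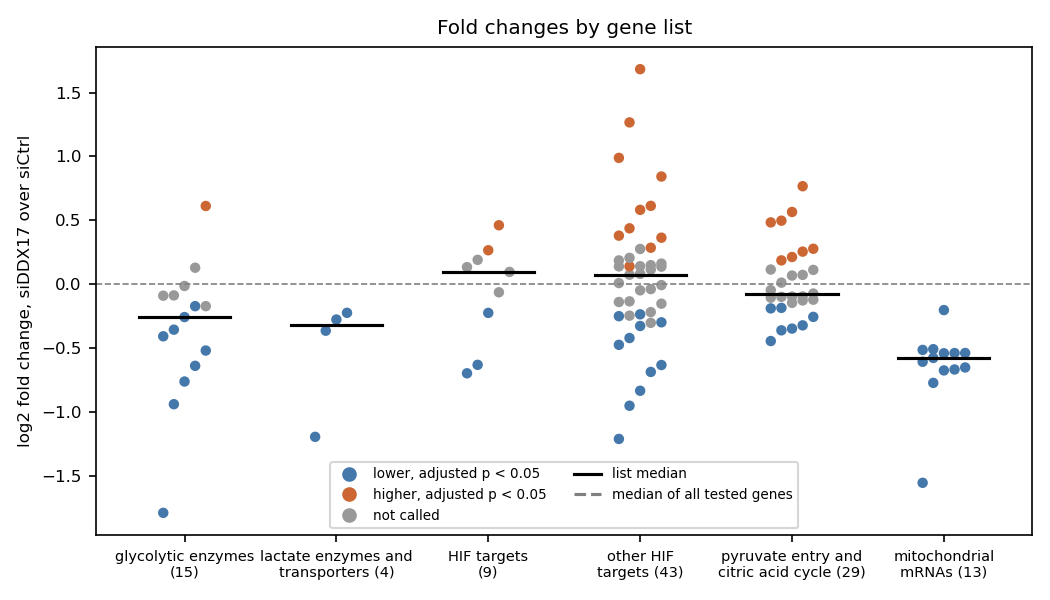
Log2 fold change of siDDX17 over siCtrl for each gene of 6 lists, with the number of tested genes in brackets, 1 point per gene. Black bars are list medians and the dashed line is the median of all tested genes. The glycolytic, lactate and mitochondrial lists have medians of -0.26, -0.32 and -0.57, while both lists of HIF targets lie on either side of 0.

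Levels per length differed widely within the list. In FPKM, the siCtrl mean was 6833 for GAPDH, 3227 for ENO1, 1748 for PKM and 1428 for LDHA, the 4 highest of the 40, and 0.603 for HK2, 1.54 for PDK1 and 1.89 for ANKRD37, the 3 lowest. Of the 4 highest, ENO1, PKM and LDHA were downregulated and GAPDH was not called. GAPDH has 65 annotated pseudogenes, of which 24 were in the count table, with a summed level of 0.0047% of that of GAPDH, so reads given to them were few. BNIP3 has 44, of which 3 were in the table, at 0.063% of its level. Only uniquely mapped reads were counted. How many reads were dropped because they matched both a gene and its pseudogene cannot be read from these levels. On the same strand, LRRC23 (a mean of 14.9 CPM) overlaps ENO2 and ATP7A (12.1 CPM) overlaps PGK1, and RSKR (0.104 CPM) overlaps ALDOC, so the division of reads is uncertain there too.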

How the data were processed

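Stranded libraries of polyadenylated RNA were sequenced from A549 cells, with 3 biological replicates per group. After trimming and alignment to GRCh38 (TopHat2), the authors counted uniquely mapped reads per gene and deposited these raw counts. FPKM values, scaled by the authors to gene length and library size, form a second deposited table. The counting program, its annotation and its use of strand are not given in the sources used here.

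Counts were analysed with edgeR 4.0.16 in R 4.3.3 (TMM scaling, filterByExpr, glmQLFit and glmQLFTest, without a block), and p-values were adjusted by the Benjamini-Hochberg method over 15615 genes. FPKM served for shares within gene families and, with limma 3.58.1 on log2(FPKM + 1) and log2(FPKM + 0.1), as an alternative. Further alternatives were DESeq2 1.42.0, other scalings, other filters, other limits, the replicate block and each library left out. Ratios of paralogs were compared with an exact permutation test. On simulated counts of 15615 genes, the test called 89 of 100 genes changed 2-fold, 68 of 100 changed 1.5-fold and 10 unchanged genes. In the data 48.8% of all tested genes were called, and whether these numbers hold at such a share was not tested.

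The members and all gene lists were chosen with earlier results of these data known. All 40 members are named. Values in every library are given for members with an adjusted p under 0.05 and a fold of at least 1.25, for HIF subunits and oxygen sensors, and for GAPDH. The remaining members are given as means or by library where 1 library decides them. From each other list up to 3 genes per direction with the largest change, an adjusted p under 0.05 and an average of at least 1 log2 CPM are named. One gene that this rule names is not reported here. Tested genes had a median of 412 reads, and the precision rests on 3 libraries per group. Promoters came from RefSeq (GRCh38.p14) and gene models from GENCODE release 44. Figures were drawn with Python 3.11.15 and matplotlib 3.10.9.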

Additional observations from a re-analysis of the deposited data

How the results depend on the processing

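Of the 28 called members, 16 kept their call in each of 16 refits (SLC2A3, PFKL, ALDOC, TPI1, PGK1, ENO1, ENO2, PKM, SLC16A1, SLC16A3, PDK1, EPAS1, VHL, CA9, CA12 and BNIP3), 12 lost it in some, and no called member reversed. Scaling by library size alone gave 10 members higher and 13 lower, and 21 further HIF targets higher and 5 lower. Of all tested genes it called 5230 higher and 2494 lower. limma on log2(FPKM + 0.1) and on log2(FPKM + 1) gave 10 members lower each, and 20 and 19 further HIF targets higher with 5 and 5 lower. Of all tested genes these fits called 5210 and 5205 higher and 2374 and 2369 lower. Library size alone and the limma fits leave out the TMM factors, and the median of all genes rose by 0.12 with library size alone. Under the limits of the study's methods (p under 0.01 without adjustment, 1.5-fold) 1 member was higher and 7 lower, and with an absolute log2 fold change over 1 these counts were 0 and 2. Leaving out 1 library at a time gave 6 to 9 members higher, 16 to 25 lower, and 7 to 15 further HIF targets lower, the lowest count being that without siDDX17 2.

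The log2 fold changes that reversed were all of members without a call. Under library size alone, log2(FPKM + 0.1) and log2(FPKM + 1) they were 0.037, 0.043 and 0.043 for GPI, 0.035, 0.040 and 0.038 for PFKM, 0.0075, 0.028 and 0.027 for PFKFB3, 0.11, 0.12 and 0.12 for PGAM1, 0.080, 0.090 and 0.080 for EGLN1, and 0.057, 0.088 and 0.079 for VEGFA. PGAM1 also gave 0.00032 with at least 10 counts in every library and 0.018 with upper quartile scaling. With 1 library left out, values ranged from -0.23 to 0.037 for PFKFB3, -0.087 to 0.053 for PGAM1, -0.095 to 0.038 for EGLN1 and -0.17 to 0.12 for VEGFA. The cause was not tested.

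Libraries with the same replicate number did not deviate together (correlations of 0.0070, 0.041 and -0.056). This shows no visible effect of the number over all genes, and it cannot decide whether the samples were prepared as pairs. With the replicate block, 6 members were higher and 21 lower. The precision is limited by 3 libraries per group and, for HK2 and ANKRD37, by few reads.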
